A study of Mus musculus with 15 samples.

Results

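The translation factors of the mouse embryonic dorsal forebrain were examined as a group of 79 protein-coding genes, out of 53337 genes in the table. They were chosen by name: every gene whose symbol starts with Eif or Eef, apart from the Y-linked Eif2s3y, together with Mknk1, Mknk2, Pabpc1, Pabpc4, Larp1, Larp4, Pdcd4, Mtor, Rptor, Rps6kb1 and Rps6kb2. Their mRNA was measured by mRNA-seq of dorsal forebrain at embryonic day 18 (E18) in C57BL/6J offspring. Dams carried a subcutaneous osmotic minipump that released arginine vasopressin (AVP), an antidiuretic and pressor peptide whose infusion serves as a model of preeclampsia, or saline from before breeding and through gestation. The libraries came from 4 male and 3 female offspring of AVP dams, and from 4 male and 4 female offspring of saline dams. A further AVP female was sequenced, and the study excluded it as an outlier because of its high variance. The 4 groups shared strain, age, tissue and the implanted pump. The study drew its brains from 8 litters, and a figure legend states that libraries of the same group and sex came from independent litters. With 4 brains sequenced per sex and condition, each litter then gave a male and a female brain. The labels did not tie a library to a litter, so which male and which female library shared a dam is unknown. The p-values below measured only the spread between libraries. The fits and permutations over both sexes treated libraries that shared a dam as independent.

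Protein synthesis starts when eIF2, loaded with GTP and the initiator tRNA, joins the small ribosomal subunit, and when the eIF4F cap complex (eIF4E, eIF4G and the helicase eIF4A) and eIF3 bring that subunit to the mRNA. eEF1 then delivers each aminoacyl-tRNA and eEF2 moves the ribosome along. The kinases of eIF2 alpha and the mTOR pathway set how often this happens, and many mRNAs of the elongation factors and of ribosomal proteins begin with a run of pyrimidines (5′ terminal oligopyrimidine, TOP) through which mTOR and Larp1 govern their translation in growing tissue, the developing cortex included.

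The TOP run is a feature of sequence and was read from the RefSeq promoter table for build GRCm38.p6, which held 61 of the 79 genes. A run was counted where a C, followed directly by 5 or more bases that were each C or T, began on the sense strand from 10 bases before to 10 bases after the annotated first base. Such a run was found in 17 of the 61 members (27.9%), against 5910 of all 27025 genes in the table (21.9%), and in 3 of the 6 classical TOP mRNAs of the group that had a sequence. The classical TOP mRNAs (Eef1a1, Eef1a2, Eef1b2, Eef1d, Eef1g, Eef2, Eif3e, Eif3f, Eif3h, Eif4b and Pabpc1) were a list of 11 genes taken from general knowledge. The windows below run from 10 bases before the annotated start and span 30 bases, with the run in capitals. They are shown to set listed TOP mRNAs with and without such a run near the annotated start side by side. Eif2s3x is shown as the X-linked factor that differed between the sexes. The run of Eif4b began 10 bases after the annotated first base, at the edge of the search. The first base of each mRNA in this tissue was not measured, so a missing run does not show that an mRNA lacks a TOP.
Eef1a1: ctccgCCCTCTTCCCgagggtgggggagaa
Eif3f: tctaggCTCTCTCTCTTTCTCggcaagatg
Eif4b: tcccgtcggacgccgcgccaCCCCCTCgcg
Eef1b2: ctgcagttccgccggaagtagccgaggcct
Eef2: aaggccgggcgttgacgtcagcggtctctt
Eef1a2: cctggtctgcgttctcgctcactggttctc
Eif2s3x: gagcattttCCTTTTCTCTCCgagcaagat
The Eef1a1 window lies at chr9:78481705-78481734 on the minus strand, that of Eif3f at chr7:108934405-108934434 on the plus strand and that of Eif4b at chr15:102073763-102073792 on the plus strand. Those of Eef1b2 (chr1:63176821-63176850, plus strand), Eef2 (chr10:81176621-81176650, plus strand) and Eef1a2 (chr2:181156996-181157025, minus strand) held no such letters near the annotated start. The Eif2s3x window lies at chrX:94212632-94212661 on the minus strand, and its run began at the base before the annotated start and spanned 12 bases.

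Values are TPM, a unit relative to transcript length and library total, summed over the transcripts of a gene, so levels can be set side by side between genes. Of the 79 members, 77 reached 1 TPM in at least 50% of the libraries and were tested. The enzyme gene Eef1akmt3 and the germ-cell cap-binding gene Eif4e1b did not, with means over the 8 saline libraries of 0.125 ± 0.0784 and 0.0458 ± 0.0333 TPM (SD). Together the 79 genes held between 1.9% and 2.2% of all TPM in a library. Their median level in saline libraries was 55.8 TPM, 32 of them were over 100 TPM, 3 were over 1000 TPM and 10 were under 10 TPM. The spread was small: the median SD of log2(TPM + 0.5) within groups was 0.12 for the 77 members and 0.21 for all 15078 genes tested over all libraries. For 58 of the 77 members the SD was below the median SD of genes within 0.5 log2 units of the same mean level.

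Library quality and tissue were checked before any comparison. The library named saline male 3 carried female transcripts: its Xist level was 266 TPM, against 174 to 294 TPM in the 7 female libraries and 0.121 to 1.13 TPM in the other 7 male libraries, and its summed level of 4 Y-linked genes was 0.489 TPM against 102 to 155 TPM in those males. It stayed under its label. The male and pooled counts and the sex difference of Eif2s3x are given with and without it. So are the male fold changes of Mknk1, Rps6kb2, Mknk2 and Eef1b2. The 8 dorsal forebrain markers summed to 1092 to 1498 TPM in every library, against 5.35 to 17.7 TPM for 5 thalamic markers and 16.1 to 90.4 TPM for 7 striatal markers. Red blood cell markers summed to 2241 to 13658 TPM, choroid plexus markers to 2.29 to 2270 TPM and meningeal fibroblast markers to 49.3 to 248 TPM. Transcripts annotated as retained introns held 3.51% to 3.9% of TPM in AVP male 1, AVP male 2 and AVP female 1, and 4.28% to 6.78% in the other 12 libraries. MicroRNA transcripts held 6.15% to 14.3% of TPM, most in AVP male 1, so the TPM of every other gene was spread over an unequal remainder.

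The elongation factors held the highest levels. Eef1a1, which carries aminoacyl-tRNA to the ribosome, stood at 7709 ± 476 TPM (SD, n = 8) in saline libraries and held rank 7 among all genes. The translocase gene Eef2 stood at 1292 ± 114 TPM and the nucleotide exchange factor gene Eef1b2 at 1067 ± 57.2 TPM, with ranks 90 and 117. The ranges of Eef2 and Eef1b2 over all libraries, 1123 to 1444 and 918 to 1195 TPM, overlapped. The other eEF1 subunit genes followed, with Eef1g at 607 ± 42.8 TPM and Eef1d at 149 ± 12.8 TPM. Eefsec, which serves selenocysteine, was lower at 13.4 ± 2.15 TPM.

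Where a factor had paralogues, the pairs split in different ways. Eef1a2, the form of neurons and muscle that replaces Eef1a1 after birth, stood at 92.4 ± 15.4 TPM, and the ratio of Eef1a1 to Eef1a2 was 85.4 ± 15.1 in saline libraries and 66.5 to 136 in all 15. The hypusinated factor Eif5a exceeded Eif5a2 by a ratio of 84.3 ± 10.3. The cap complex helicases Eif4a1 and Eif4a2 were nearly level, with a ratio of 1.12 ± 0.0882 and a range of 0.961 to 1.24. Pabpc1, the main cytoplasmic poly(A)-binding protein, exceeded Pabpc4 by 5.32 ± 0.241, and Eif4ebp2, the eIF4E-binding protein prominent in brain, exceeded Eif4ebp1 by 16.7 ± 3.63. Several of these genes share sequence with other loci, and words of 31 bases were compared to find how much. The share of words that also occurred in transcripts of other genes was 47.3% for Eef1a1, 47.5% for Eef1g, 62.9% for Pabpc4, 35.3% for Eif2s3x and 31.1% for Eif4a1. Averaged over all libraries, the gene sharing most words was at 0.278 TPM for Eef1a1, 0.123 TPM for Eef1g and 0.118 TPM for Pabpc4. It was at 0.545 TPM for Eif2s3x and 38.7 TPM for Eif4a1. For Eif3j2, where 94.9% of the words recurred, it was Eif3j1, at 17.1 TPM. The split between Eif3j1 and Eif3j2 is therefore uncertain. For Eif4ebp3, 66.4% of the words recurred, all of them in the overlapping gene AC115631.1, at 9.77 TPM. The level of Eif4ebp3 is therefore uncertain as well. The shares count words and do not give the size of an error in level, which was not tested.

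Within initiation, the levels of the complexes overlapped. The most abundant cap and scanning genes were Eif4a1 (964 ± 31.7 TPM), the eIF4G homologue Eif4g2 (863 ± 58.7 TPM) and Eif4a2 (862 ± 63.5 TPM), whose ranges overlapped. The cap-binding Eif4e stood at 205 ± 14.7 TPM and the scaffold Eif4g1 at 135 ± 9.38 TPM. Of the 14 eIF3 subunit genes, 12 lay between 112 ± 9.63 TPM (Eif3a) and 340 ± 23 TPM (Eif3h), and Eif3j1 and Eif3j2 lay apart at 17.3 ± 0.505 and 27.7 ± 4.67 TPM. The start codon factor Eif1 stood at 534 ± 18.8 TPM and its paralogue Eif1b at 349 ± 16.2 TPM. The 5 subunit genes of eIF2B, which reloads eIF2 with GTP, lay between 27.6 ± 2.6 TPM (Eif2b3) and 48.8 ± 4.26 TPM (Eif2b2).

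The regulators had lower levels than the main factors they act on. The eIF2 alpha kinases kept a fixed order with no overlap over the 15 libraries: Eif2ak1 (HRI, the heme-regulated kinase) ranged from 26 to 32.3 TPM, Eif2ak3 (PERK, of the endoplasmic reticulum) from 12.5 to 16.7 TPM, Eif2ak4 (GCN2, the sensor of uncharged tRNA) from 6.92 to 11.9 TPM and Eif2ak2 (PKR, of double-stranded RNA) from 1.74 to 3.8 TPM. Among the kinases of the mTOR branch, Rps6kb1 stood at 35.9 ± 4.14 TPM and Rps6kb2 at 48.8 ± 6.33 TPM, while Mtor stood at 21.7 ± 1.4 TPM and its partner Rptor at 14.4 ± 0.908 TPM. On protein-coding transcripts alone the order of the S6 kinase genes was reversed. Their medians over all libraries were 26.2 TPM for Rps6kb1 and 8.27 TPM for Rps6kb2. The MNK kinases, which phosphorylate eIF4E, stood at 39.9 ± 1.88 TPM for Mknk2 and 21.5 ± 3.17 TPM for Mknk1. Larp1, which binds TOP mRNAs, stood at 37.5 ± 2.11 TPM, the eIF4A inhibitor Pdcd4 at 53.5 ± 5.35 TPM and the eEF1A methyltransferase gene Eef1akmt2 at 74.8 ± 4.9 TPM.

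**Figure D1:**
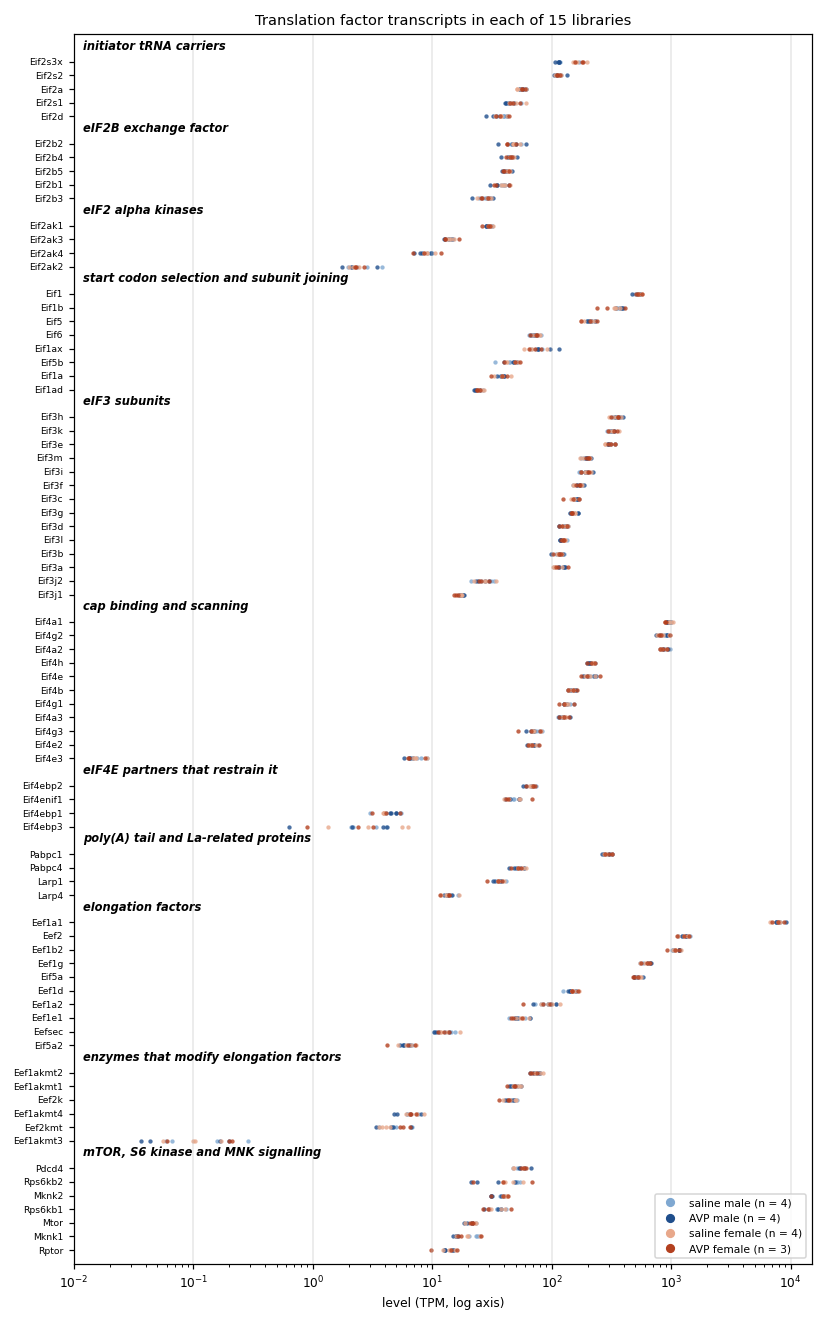
Level of each translation factor gene in each of 15 libraries (points, TPM on a log axis), grouped by role and colored by group, with n as in the key. Eif4e1b is left out because it was listed at 0 in some libraries. The points of most genes lie close together across groups, Eef1a1 has the highest levels, at 6737 to 9043 TPM, and Eif4ebp3 and Eef1akmt3 are the widest.

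Part of the TPM of these genes lay on transcripts that the annotation does not class as protein coding (retained introns, nonsense-mediated decay targets and processed transcripts). The median share over the 77 members with a mean of at least 1 TPM was 3.13%, and for 42 members it was under 5%. It was over 50% for 6 members: Rps6kb2 (median 80%), Eif5b (62.8%), Rptor (60.4%), Eif4ebp1 (59.5%), Eef1e1 (55.7%) and Eef1b2 (53.3%). Mknk1 came next, at 48.7%. For these genes a total level is largely a level of RNA that is not annotated to encode the protein. A change in it is given below for coding transcripts as well for Rps6kb2, Eef1b2 and Mknk1. For Eif4ebp1 the male log2 fold change (AVP minus saline) was 0.09 in total and -0.22 on coding transcripts. The same 2 values were -0.16 and -0.32 for Rptor, 0.14 and 0.15 for Eif5b, and -0.015 and 0.01 for Eef1e1.

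In males, the first comparison asks whether maternal AVP moved these mRNAs in the fetal dorsal forebrain. None of the 77 members passed an adjusted p of 0.05 by limma, with 0.00655% of the 15271 genes tested passing. At an unadjusted p under 0.05, 1 member was higher (Eef1b2) and 4 were lower (Mknk1, Rps6kb2, Mknk2 and Eif4e3), where 1.11% of all genes were higher and 12.4% were lower. Without saline male 3 these counts were 1 and 3, with 1.04% and 7.1% of all genes, and without AVP male 4 they were 2 and 8, with 1.12% and 18.5% of all genes. None passed the adjusted threshold in either fit. The median log2 fold change was -0.026 over the members and -0.10 over all genes tested, and 55 of the 77 members lay above the all-gene median. The sign of a small change depended on scaling: with median-of-ratios scaling the all-gene median was 0.0033, 16 members were higher at an unadjusted p under 0.05 and 2 were lower, with 6.56% of all genes higher and 4.98% lower.

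Mknk1 (chr4:115839198-115879250 of GRCm38, plus strand) had the smallest p of the group in males. Its level was 14.8, 15.8, 15.9 and 16.3 TPM in the AVP males and 23.3, 23.6, 20.4 and 24.5 TPM in the saline males. Every AVP male lay below every saline male. The log2 fold change was -0.53 ± 0.083 (SE), with an adjusted p of 0.304 by limma, and it was -0.58 without saline male 3. The exact two-sided permutation test gave p = 0.0286, unadjusted over 77 members, the smallest that 4 against 4 libraries allow. The difference was not the same for all classes of transcript. On coding transcripts, AVP males had 9.24 ± 1.62 TPM and saline males 9.94 ± 1.31 TPM (SD, n = 4 each), and the ranges overlapped. On the other transcripts, which are processed transcripts in the main, AVP males had 6.97, 5.44, 8.04 and 5.41 TPM and saline males 14.5, 13.4, 8.72 and 15.4 TPM. The groups did not overlap there. Saline male 3, the library with female transcripts, was the nearest to the AVP males. In the fit of coding transcripts alone the log2 fold change of Mknk1 was -0.11 with an unadjusted p of 0.464 by limma. Within the libraries numbered 1 to 8 the difference in log2(TPM + 0.5) was -0.60, and within those numbered 13 to 20 it was -0.46.

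Rps6kb2 (chr19:4153991-4163354, minus strand), an S6 kinase gene, had the largest fold change in males. Its level was 23.7, 20.9, 35.6 and 49.1 TPM in the AVP males and 51.3, 49.2, 53.8 and 51.1 TPM in the saline males. AVP male 1 and AVP male 2 were the low ones, and AVP male 4 was just under the lowest saline male. The log2 fold change was -0.74 ± 0.23 (SE), with an adjusted p of 0.304 by limma. It ranged from -0.97 to -0.56 when single libraries were left out, and was -0.72 without saline male 3. The coding transcripts held 7.09, 7.73, 7.43 and 9.24 TPM in the AVP males and 10, 9.83, 8.72 and 7.77 TPM in the saline males, which overlapped. In the other transcripts the AVP males held 16.7, 13.1, 28.1 and 39.9 TPM and the saline males 41.3, 39.4, 45.1 and 43.3 TPM, so that only AVP male 4 reached the saline range. The low libraries of Rps6kb2 were those with a low retained-intron share. Over all 15 libraries, AVP male 1, AVP male 2 and AVP female 1 had 20.9 to 23.7 TPM of Rps6kb2 and the other 12 had 35.6 to 67.9 TPM. With the retained-intron share as a covariate, added after seeing the data, the male log2 fold change was -0.24, and the part of that share in the difference was not tested beyond this. Within the libraries numbered 1 to 8 the difference was -1.16, and within those numbered 13 to 20 it was -0.32.

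**Figure D2:**
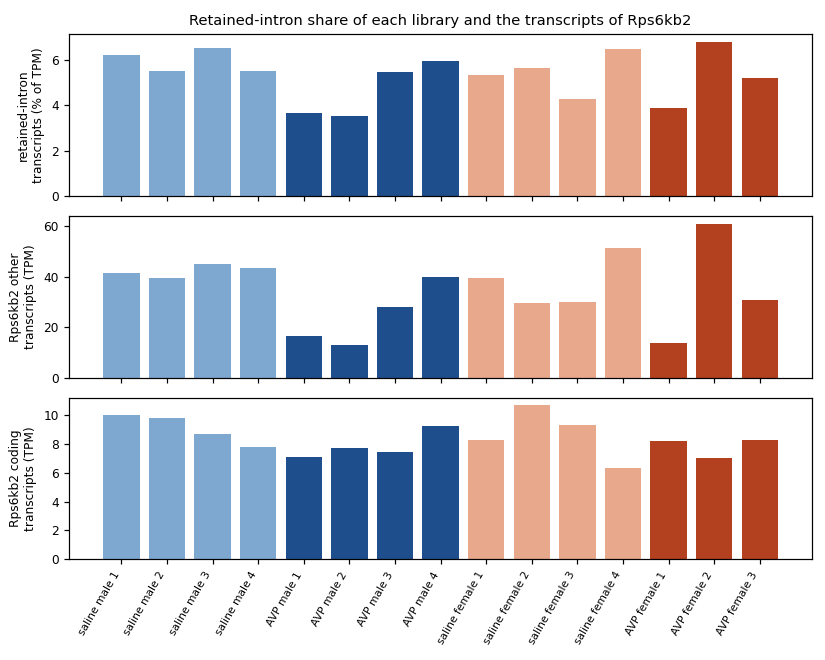
Bars for each of 15 libraries, colored by group, with all axes starting at 0: percent of TPM on retained-intron transcripts (top), and TPM of Rps6kb2 on other (middle) and coding (bottom) transcripts. AVP male 1, AVP male 2 and AVP female 1 are low in the top and middle panels, and the coding transcripts lie between 6.32 and 10.7 TPM.

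The other MNK kinase and the cap-binding homologue Eif4e3 were lower in males as well, without passing the adjusted threshold. Mknk2, whose TPM lay wholly on coding transcripts, was at 31.1, 30.8, 31.8 and 37.8 TPM in the AVP males and 40.2, 38.8, 39.8 and 36.8 TPM in the saline males. AVP male 4 lay above saline male 4, and the other 3 AVP males lay below every saline male. The log2 fold change of Mknk2 was -0.24 ± 0.082 (SE), with an adjusted p of 0.31 by limma. It was -0.23 without saline male 3, and -0.13 both with median-of-ratios scaling and with the retained-intron share as a covariate. Eif4e3 was at 6.39 ± 0.415 TPM in AVP males and 7.81 ± 0.955 TPM in saline males (SD, n = 4 each), with overlap. Of the 7 genes of mTOR, S6 kinase and MNK signalling, 6 had a log2 fold change below 0, also with median-of-ratios scaling, and Pdcd4 had one above 0. Their median log2 fold change was 0.10 below that of all genes, against 0.078 above it over all members.

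Eef1b2 (chr1:63176825-63180486, plus strand) was the member with the smallest p among those higher in males, and it was on the study's list of genes changed in these males, so it is no independent evidence. Its level was 1166, 1160, 1173 and 1151 TPM in the AVP males and 1036, 1030, 1058 and 1015 TPM in the saline males. Every AVP male lay above every saline male, with an SD of 9.56 TPM in the AVP males and 17.6 TPM in the saline males. The log2 fold change was 0.17 ± 0.046 (SE), with an adjusted p of 0.304 by limma, and the exact permutation test gave p = 0.0286, again the smallest possible. Without saline male 3 the log2 fold change was 0.18. The coding transcripts held 547 ± 12.7 TPM in AVP males and 483 ± 14.5 TPM in saline males (SD, n = 4 each), without overlap. The other transcripts held 616 ± 20.2 and 551 ± 31.8 TPM, of which the nonsense-mediated decay transcript Eef1b2-205 made up 577 ± 24.4 and 506 ± 31.9 TPM. The difference was 0.17 in either set of library numbers. Exons of the gene overlap another annotated gene, Gm27390, over 176 of 2532 bases.

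**Figure D3:**
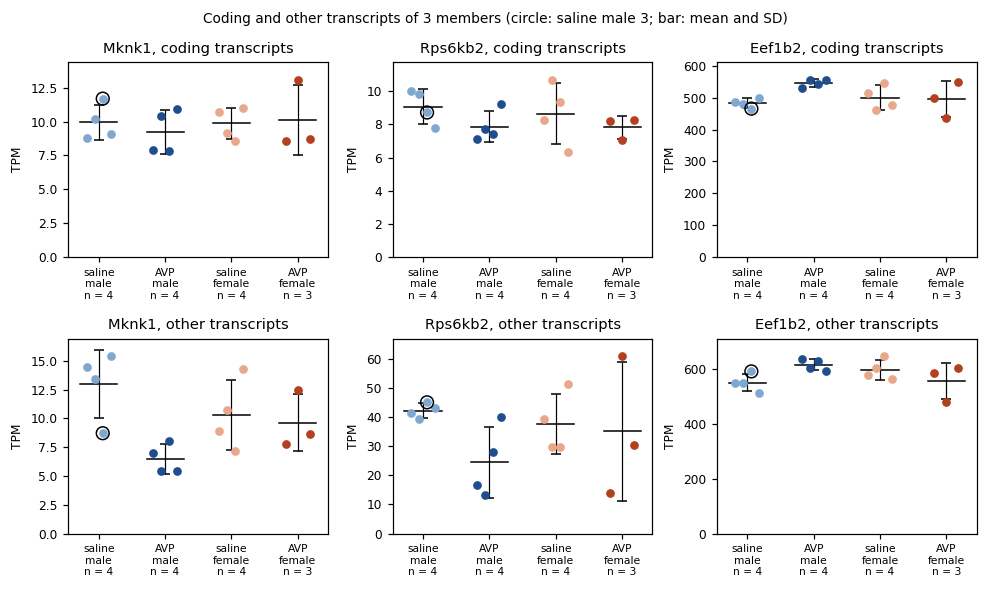
TPM on coding (top) and other (bottom) transcripts of Mknk1, Rps6kb2 and Eef1b2 for each library, with the group mean and SD as bars and n under each group; the circle marks saline male 3. In males the groups overlap for coding transcripts of Mknk1 and Rps6kb2 and do not overlap for those of Eef1b2, at 530 to 557 against 466 to 501 TPM.

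Beyond these, few members had male groups that did not overlap. Eef1b2 and Eif3m, an eIF3 subunit gene, lay wholly above in AVP males, and Eif1ad, Larp1, Mknk1 and Rps6kb2 wholly below, while 0.733% of all genes tested lay above and 6.54% below. Eif3m was at 194, 200, 196 and 213 TPM in the AVP males and 187, 191, 189 and 174 TPM in the saline males. Larp1 was at 32.1, 33.2, 35.8 and 36.6 TPM in the AVP males and 41.5, 36.8, 38 and 36.8 TPM in the saline males, so the gap between the groups was narrow. Eif1ad, a gene related to Eif1a, was at 23.1 ± 1.04 and 25.4 ± 0.846 TPM (SD, n = 4 each). Eif1ax, the X-linked gene of eIF1A, was at 95.8, 114, 77.2 and 77.3 TPM in the AVP males and 77.4, 82.1, 73.7 and 67.2 TPM in the saline males. The 2 high libraries of Eif1ax were again AVP male 1 and AVP male 2, and its log2 fold change of 0.26 ± 0.13 (SE) was 0.033 for coding transcripts and 0.036 with the retained-intron share as a covariate.

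By role, the members divided in males without any single gene passing the adjusted threshold. All 14 eIF3 subunit genes lay above the all-gene median, and their median log2 fold change was 0.053, or 0.16 above that of all genes. The 10 elongation factors had a median of 0.034, or 0.14 above, with 9 of the 10 above the all-gene median. The 11 classical TOP mRNAs had a median of 0.061, or 0.16 above, and all 11 lay above the all-gene median. Most of them belong to the lists just given, so these medians are not independent. Eef1a1, Eef1a2, Eef1b2, Eef1d, Eef1g and Eef2 are elongation factors, and Eif3e, Eif3f and Eif3h are eIF3 subunits. The other 66 members tested had a median of -0.042, or 0.062 above. The same value for 76 cytoplasmic ribosomal protein genes, the best known TOP mRNAs, was 0.23 above in males and 0.075 above in females. The study had already reported cytoplasmic translation as over-represented among the genes changed in these males. Its list held ribosomal protein genes, so the male value is no independent evidence. Among single TOP mRNAs, the log2 fold change was 0.13 ± 0.065 (SE) for Eef1g and 0.11 ± 0.064 for Eif3h. Levels in AVP and saline males were 8062 ± 685 and 7751 ± 348 TPM for Eef1a1, 1296 ± 40.2 and 1292 ± 132 TPM for Eef2, 173 ± 9.4 and 166 ± 12.5 TPM for Eif3f, and 148 ± 9.33 and 149 ± 5.42 TPM for Eif4b (SD, n = 4 each). The ranges of these 4 genes overlapped between the groups. The 4 eIF2 alpha kinase genes had a median of -0.14, or 0.038 below that of all genes. Over all alternatives the male medians relative to all genes were 0.063 to 0.18 for eIF3 subunits, 0.034 to 0.18 for elongation factors, 0.057 to 0.19 for TOP mRNAs and -0.15 to -0.063 for mTOR, S6 kinase and MNK genes. These medians describe the lists and were not tested.

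The library values show what the medians rest on. For each library, the median deviation of the 11 TOP mRNAs from their mean over libraries, less that of all genes, was 0.18, 0.047, 0.082 and 0.051 log2 units in the AVP males and 0.0027, -0.02, -0.16 and -0.10 in the saline males. The ranges were separate by a narrow gap, and saline male 3 held the lowest value. In the AVP females the values were 0.074, -0.24 and 0.19, and in the saline females -0.015, 0.042, -0.018 and -0.15. AVP female 2 and AVP female 3 lay at opposite ends of the 15 libraries. Red blood cell markers had a median log2 fold change 0.40 above that of all genes in males and meningeal fibroblast markers 0.29 above, and the part of these cells in the list medians was not tested. In bulk tissue, fewer cells of a type and less RNA per cell cannot be told apart.

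**Figure D4:**
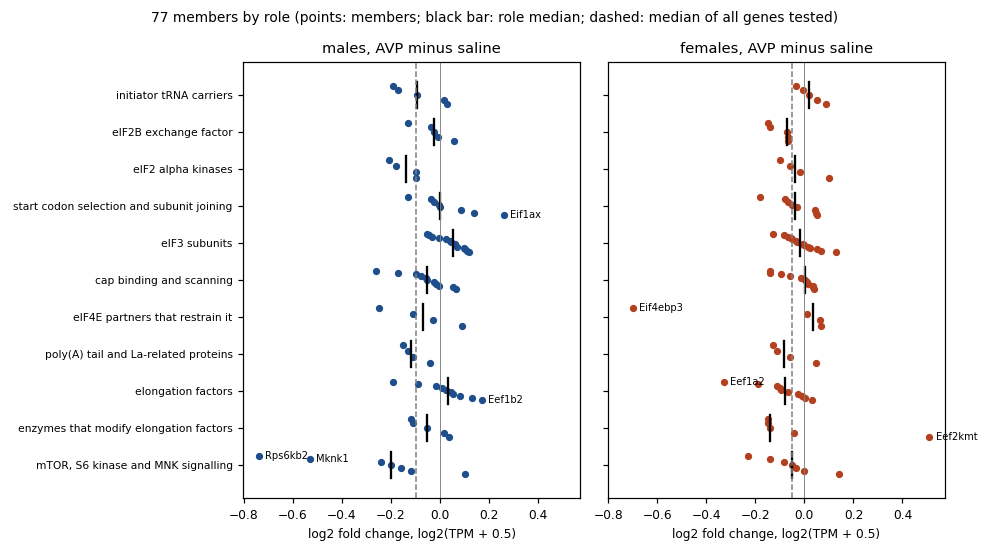
Log2 fold change (AVP minus saline, of log2(TPM + 0.5)) of the 77 tested members by role, in males (left) and females (right); black bars mark role medians, the solid line 0 and the dashed line the median of all genes tested. In males the 14 eIF3 subunits and 9 of the 10 elongation factors sit to the right of the dashed line and Rps6kb2 and Mknk1 far to its left, and in females Eef2kmt lies farthest to the right at 0.51.

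In females, the same question gave no member past the adjusted threshold, with 0% of the 15132 genes tested passing by limma. At an unadjusted p under 0.05, 1 member was higher (Eef2kmt) and 0 were lower, with 2.34% of all genes higher and 2.17% lower. The median log2 fold change was -0.036 over the members and -0.051 over all genes. Eef2kmt, the methyltransferase gene for eEF2, was at 6.55, 5.67 and 5.32 TPM in the AVP females and 3.55, 4.39, 3.78 and 4.06 TPM in the saline females. The groups did not overlap, and the males, at 3.35 to 6.81 TPM, spanned both. The log2 fold change was 0.51 ± 0.16 (SE), with an adjusted p of 0.999 by limma.

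The most abundant helicase gene was also separate in females. Eif4a1 was at 878, 898 and 893 TPM in the AVP females and 953, 988, 1025 and 953 TPM in the saline females. Its log2 fold change was -0.14 ± 0.074 (SE), with an adjusted p of 0.999 by limma, and the difference was -0.14 in either set of library numbers. Eif3j1 was lower without overlap too, at 15.8 ± 0.642 TPM (SD, n = 3) and 17.3 ± 0.524 TPM (n = 4). Over all genes tested, 2.78% lay wholly above and 2.77% wholly below in AVP females, where the members counted 1 and 2. The smallest p that the exact permutation test allows with 3 against 4 libraries is 0.0286. Eef2kmt and Eif4a1 reached it, unadjusted, among 77 members. Eef1a2 had a log2 fold change of -0.33 ± 0.19 (SE) with values of 96, 84.1 and 56.9 TPM in the AVP females and 117, 92.3, 81.1 and 100 TPM in the saline females, which overlapped, and the fold change was -0.11 without AVP female 3. The largest fold change, -0.70 ± 0.51 (SE), was that of Eif4ebp3. Its level ranged from 0.9 to 3.21 TPM in the AVP females and from 1.34 to 6.21 TPM in the saline females. Exons of Eif4ebp3 overlap another annotated gene, AC115631.1, over 501 of 744 bases. That gene held 66.4% of the sequence words of Eif4ebp3 and averaged 9.77 TPM over all libraries. The level and fold change of Eif4ebp3 are therefore uncertain, and the part of the overlap in them was not tested.

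The same 4 lists were set beside the all-gene median in females. The eIF3 subunits stood 0.034 above it, the elongation factors 0.030 below, the TOP mRNAs 0.066 above and the mTOR, S6 kinase and MNK genes 0.0023 above. These female values rest on single libraries: without AVP female 2 the eIF3 subunits stood 0.15 above and the elongation factors 0.11 above. Summed marker levels of several cell types had unlike ranges in AVP and saline females, in either direction. Apart from those of meningeal fibroblasts the ranges overlapped or touched. No marker gene passed the adjusted threshold, but neither did any other gene (0% of 15132). At an unadjusted p under 0.05 by limma, 5 of 5 red blood cell genes tested were higher, against 2.34% of all genes. So were 6 of 7 meningeal, 3 of 6 cycling and 1 of 4 choroid plexus genes. Lower were 1 of 6 neuron and 0 of 7 striatal genes, against 2.17% of all genes. Meningeal fibroblast markers summed to 168 to 248 TPM in AVP females and 102 to 119 TPM in saline females, red blood cell markers to 5129 to 13658 and 2241 to 5707 TPM, and cycling cell markers to 184 to 249 and 134 to 184 TPM. Neuron markers summed to 3116 to 4065 TPM in AVP females and 4034 to 4474 TPM in saline females, and striatal markers to 21.6 to 69.4 and 34.2 to 82.7 TPM. Choroid plexus markers summed to 20.2 to 2270 TPM in AVP females and 4.64 to 952 TPM in saline females. All 7 meningeal, all 7 red blood cell and all 6 cycling genes reached 1 TPM in some library, and the part of these cells in the female values was not tested.

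The difference between the sexes in the AVP effect was tested as an interaction over all 15 libraries, taken as the effect in females minus that in males. None of the 77 members passed the adjusted threshold by limma, and neither did any other gene (0% of 15078). At an unadjusted p under 0.05, Mknk1 had a higher effect in females and Eef1b2 a lower effect, where the shares of all genes were 2.52% and 1.62%. For Mknk1 the difference was 0.49 ± 0.22 (SE), with an adjusted p of 0.896 by limma. Its levels were 16.3, 25.6 and 17.3 TPM in the AVP females and 19.7, 19.9, 15.8 and 25.2 TPM in the saline females, so that the groups covered the same range. On coding transcripts it was 0.12, with an unadjusted p of 0.607 by limma. For Eef1b2 the difference was -0.24 ± 0.10 (SE), with the same adjusted p, and on coding transcripts it was -0.20, with an unadjusted p of 0.0859. The female levels of Eef1b2 were 1084, 918 and 1155 TPM with AVP and 1095, 1066, 1195 and 1042 TPM with saline. Without saline male 3 the values were 0.55 and -0.25, and without AVP female 2 they were 0.30 and -0.14.

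Over both sexes together, with sex as a covariate, 0 members passed the adjusted threshold, and 0% of all 15078 genes did. At an unadjusted p under 0.05 by limma, 0 members were higher and 3 were lower (Mknk2, Mknk1 and Rps6kb2), against 0.683% of all genes higher and 9.69% lower. Without AVP female 2 the counts were 1 and 15, with 1.13% and 22.9% of all genes. Without AVP male 4 they were 0 and 6 (0.52% and 10.6% of all genes), and without saline male 3 they were 1 and 2 (0.772% and 6.56%). The balance moved with scaling: 4 were higher and 3 lower with median-of-ratios scaling (2.91% and 4.48% of all genes), and 5 and 2 with quantile normalization (4.09% and 3.84%). The log2 fold change was -0.19 ± 0.071 (SE) for Mknk2, -0.30 ± 0.12 for Mknk1 and -0.51 ± 0.22 for Rps6kb2. Permuting treatment within each sex, an exact test over 2450 splits, gave p = 0.0192, 0.0576 and 0.078 for the 3 genes, unadjusted. Without saline male 3, over 1225 splits, the exact p was 0.0335, 0.0449 and 0.0898, so Mknk1 fell below 0.05 only without that library. For coding transcripts alone the fold changes of Mknk1 and Rps6kb2 were -0.051 and -0.16.

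Genes of neighbouring steps were examined beside the members. Of 34 genes (release and recycling factors, hypusine enzymes, poly(A)-binding protein partners, other mTORC1 genes and targets of the integrated stress response), 32 were tested. None passed the adjusted threshold in either sex. At an unadjusted p under 0.05 by limma, 0 were higher and 3 lower in males, where 12.4% of all genes were lower, and 0 higher and 1 lower in females, where 2.17% were. The median of the 32 genes was 0.051 above that of all genes in males and 0.011 below it in females, and the 11 tested stress response targets stood 0.043 above and 0.010 below.

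Between the sexes, Eif2s3x stood apart. It encodes the gamma subunit of eIF2 on the X chromosome (chrX:94188707-94212862, minus strand), is known to escape X inactivation, and has the Y-linked homologue Eif2s3y. Its level was 107, 116, 113 and 116 TPM in the AVP males and 114, 115, 169 and 117 TPM in the saline males. In the AVP females it was 178, 183 and 156 TPM and in the saline females 151, 163, 198 and 155 TPM. The value of 169 TPM belongs to saline male 3, the library with female transcripts, and without it every female lay above every male. With all libraries the log2 difference, females minus males, was 0.49 ± 0.09 (SE), with an adjusted p of 0.525 by limma, and 0% of all genes passed. Without saline male 3 it was 0.56, with an adjusted p of 0.000642, and Eif2s3x was 1 of 7 genes called of 15164 (0.0462%). The exact permutation of sex within treatment gave p = 0.00163 over 2450 splits with all libraries and 0.000816 over 1225 splits without that library, the smallest those splits allow.

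With the Y-linked homologue added, males had the higher mean. Eif2s3y ranged from 61.8 to 107 TPM in the 7 males with male transcripts and from 0 to 0.489 TPM in the females. The sum of Eif2s3x and Eif2s3y was 174, 177, 207 and 210 TPM in the AVP males and 220, 211 and 210 TPM in the saline males other than saline male 3. In females the sum was 151 to 198 TPM. The ranges overlapped, but 5 of these 7 males lay above every female, with means of 201 ± 18.1 TPM in these males and 169 ± 17.5 TPM in females (SD, n = 7 each). The difference of the sums was not tested. The other X-linked factor, Eif1ax, had its lower mean in females: its log2 difference, females minus males, was -0.20 ± 0.11 (SE), and the exact permutation test gave p = 0.105. Over the 77 members, 1 was higher in females at an unadjusted p under 0.05 and 0 were lower, against 0.65% and 0.743% of all genes, and the median difference was -0.00027.

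**Figure D5:**
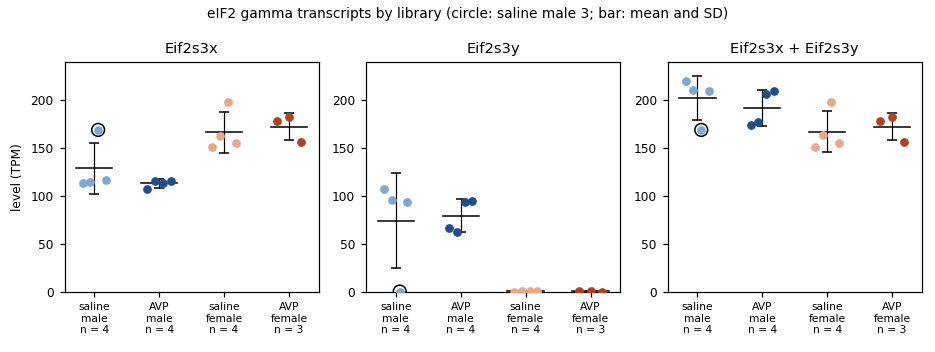
TPM of Eif2s3x, of its Y-linked homologue Eif2s3y and of their sum for each library in the 4 groups, with the group mean and SD as bars and n under each group; the circle marks saline male 3. Females lie above males for Eif2s3x except for the circled library, at 169 TPM, and the sum in males, 174 to 220 TPM without it, overlaps that in females, 151 to 198 TPM, with 5 males above every female.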

How the data were processed

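Stranded mRNA libraries were made from total RNA of E18 dorsal forebrain. Per the methods, the authors trimmed the reads (Trim Galore 0.4.1) and quantified GENCODE M16 transcripts of GRCm38 with Kallisto 0.43.1. The deposited table holds 1 value for each of 133849 transcripts and 15 libraries, and each library sums to the same total, so the authors' values were read as TPM. TPM carry no counts, and the depth behind a value is unknown. TPM are relative to the rest of a library, which can move all genes together.

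Transcripts were summed to genes with GENCODE M21, which lacks 404 transcripts holding 0.1541% to 0.1992% of TPM. A gene entered a comparison if it reached 1 TPM in no fewer than 50% of its libraries. Values on the log2(TPM + 0.5) scale were fitted by limma 3.58.1 (R 4.3.3, trend, two-sided), with Benjamini-Hochberg adjustment over all genes and calls made under 0.05. Within each sex, the AVP and saline libraries were compared. The interaction, the pooled effect and the sex difference used all libraries. Library run means the label numbers 1 to 8 or 13 to 20. Single members also had exact two-sided permutation tests. The members and gene lists were chosen with earlier results of these data known. Named genes were the most abundant of each role, paralogue pairs, X-linked factors, TOP mRNAs, Eef1b2, and up to 5 members of smallest p per direction. The tests were checked on simulated data with larger changes than those of the members and with independent noise for each gene and library. That check does not cover changes as small as the members' own, or a shift shared by all genes. Replicate numbers were given in accession order and pair nothing. Groups came from the treatment and gender labels. Alternatives covered pseudocount, filter, scaling, trend, library run and each library left out. Figures used matplotlib 3.10.9.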

Additional observations from a re-analysis of the deposited data

Results flagged for a closer look

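Groups of 4 libraries were searched for a library far from the others by Dixon's test, over 36 named members, the retained-intron share and 4 list medians. Of 123 groups, 5 were marked, where chance alone marks about 1 in 20, or 6.15. They were Eif2s3x at 169 TPM in saline male 3, Eef2 at 1236 TPM in AVP male 3 (the other AVP males were at 1316 to 1318 TPM), Mknk2 at 37.8 TPM in AVP male 4, Eif2a at 53.5 TPM in saline male 1 and Eif2b2 at 54.3 TPM in saline female 2. The AVP females, with 3 libraries, were not searched.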

How the results depend on the processing

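Over 117 alternative fits, the number of members past the adjusted threshold stayed at 0, apart from the sex difference, where it was 0 to 1 with single libraries left out and was 1 (Eif2s3x) without saline male 3. Of 647 values of named genes under an alternative, 638 kept direction and side of the threshold. The exceptions other than Eif2s3x were female values of 3 genes that changed sign: Mknk1 was 0.011 with quantile normalization, 0.014 for coding transcripts only, 0.0036 with the retained-intron share as a covariate and -0.23 to 0.084 with single libraries left out. Likewise Rps6kb2 was -0.63 to 0.17 and Eef1b2 -0.14 to 0.027 with single libraries left out. The median over the members less that of all genes moved from 0.015 to between -0.03 and 0.076 in females and from -0.071 to between -0.12 and -0.017 for the interaction, both extremes set by leaving out AVP female 3 or AVP female 2. The causes were not tested. In males that median was 0.026 to 0.099 under all alternatives. Fits of coding transcripts, with the retained-intron share, and rescaled without microRNA genes were chosen after seeing the data. Depth is unknown for TPM, so counting error could not be separated from the spread between libraries.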
